A study of Mus musculus with 6 samples.

Results

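The genes examined were those of the mouse major histocompatibility complex (MHC) and of antigen presentation in gastrocnemius muscle. They were every symbol of the count table that starts with H2-, the prefix of the mouse MHC, together with B2m, Tap1, Tap2, Tapbp, Cd74, Ciita, Nlrc5, Psmb8, Psmb9 and Psmb10. This gave 54 of 24054 genes. By role they were 33 class I genes, 11 class II genes, 8 genes of peptide processing and transcriptional control, and 2 genes, H2-Ke2 and H2-Ke6, that are named for their place in the region and encode other proteins.

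RNA-seq was carried out on 6 gastrocnemius libraries from male C57BL/6 mice, 3 labelled as IRF4 knockout (MI4KO) and 3 labelled as IRF4 overexpression (MI4OE). MI4KO mice were Irf4 flox/flox with Myl1-cre, and MI4OE mice carried Myl1-cre with a Rosa26-LSL-IRF4 allele, so both groups carried the Cre. Myl1-cre acts in skeletal muscle fibres, and other cells of the muscle kept their own Irf4 alleles. The floxed line came from a stock with 129S1 in its name, gastrocnemius of wild-type or flox mice was not analysed here, and the age of these mice was not given. The labels put all mice on a high fat diet while the study describes chow, so the diet is in doubt.

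MHC class I molecules consist of a heavy chain and the light chain beta-2 microglobulin (B2m), and they show peptides from inside the cell to CD8 T cells on nearly every cell type. The peptides are cut by the proteasome, in which Psmb8, Psmb9 and Psmb10 can take the place of the constitutive subunits Psmb5, Psmb6 and Psmb7, and are carried into the endoplasmic reticulum by the Tap1 and Tap2 transporter and loaded with the help of Tapbp (tapasin). Class II molecules pair an alpha and a beta chain, are guided by the invariant chain Cd74 and are loaded with the help of H2-DM, and they are made mainly by macrophages, dendritic cells and B cells. Nlrc5 and Ciita are the transcriptional coactivators of class I and class II genes, and resting muscle fibres are known for little class I and no class II.

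IRF4 is itself a transcription factor of the interferon regulatory factor family, and its transcript was used to check the genotype labels. Irf4 had 6, 0 and 2 counts in MI4KO replicates 1, 2 and 3 and 2864, 10557 and 5911 counts in MI4OE replicates 1, 2 and 3, as the labels state. Total counts ran from 18828605 to 29239585 per library, and a floor of 3 counts equalled 0.101 to 0.148 CPM (counts scaled to library size). Several libraries lay apart from the rest. MI4OE replicate 1 was the lowest library for 3853 and the highest for 3993 of the 12660 genes tested. It had the lowest summed level of 10 muscle fibre markers, at 187678 CPM, and the highest of 10 endothelial markers, at 419 CPM against 130 to 257 CPM in the others. MI4KO replicate 1 was lowest for 2913 and highest for 2302 genes, and MI4KO replicate 2 for 2638 and 2721 genes. By this measure replicate 1 was not set apart from replicate 2. MI4KO replicate 1 had the highest muscle fibre sum, at 342879.5 CPM against 264129 CPM in the next library. The gap was smaller on the TPM scale (338985 against 313835 TPM). Its T cell markers summed to 0.450 CPM and its endothelial markers to 130 CPM, the lowest of the 6 libraries for both. MI4KO replicate 3 had the highest summed adipocyte markers, at 966 CPM against 113 to 346 CPM in the others, and the highest hepatocyte markers, at 52.5 CPM against 0.221 to 4.20 CPM. The class medians and the genes that met a criterion are given below also without single libraries.

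No antigen presentation gene differed between MI4OE and MI4KO at an adjusted p under 0.05. The threshold was met by 3 of the 12660 genes tested, 0.0237%. Of the 54 genes, 31 passed the filter on low counts and were tested, and 23 did not pass. Among the 31, 20 were below 0 and 11 above 0 on the log2 scale (MI4OE over MI4KO), beside 6333 of 12660 tested genes below 0. A change of 1.5-fold or more with an unadjusted p under 0.05 was reached by H2-Q10 and Tap1, both lower in MI4OE, and by 0 genes in the higher direction. Across all tested genes 6.64% met that criterion, 2.28% in the lower direction and 4.36% in the higher one. Over the 31 genes the adjusted p ran from 0.522 to 0.992 with edgeR's quasi-likelihood test. DESeq2 put 1 of them, H2-Q10, under an adjusted p of 0.05, and edgeR's exact test and limma put 0 of them there. Each library has its own number in the labels, and these p-values measure the spread between the libraries of a group. In these bulk samples, fewer cells of a type and less RNA per cell cannot be told apart.

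**Figure D1:**
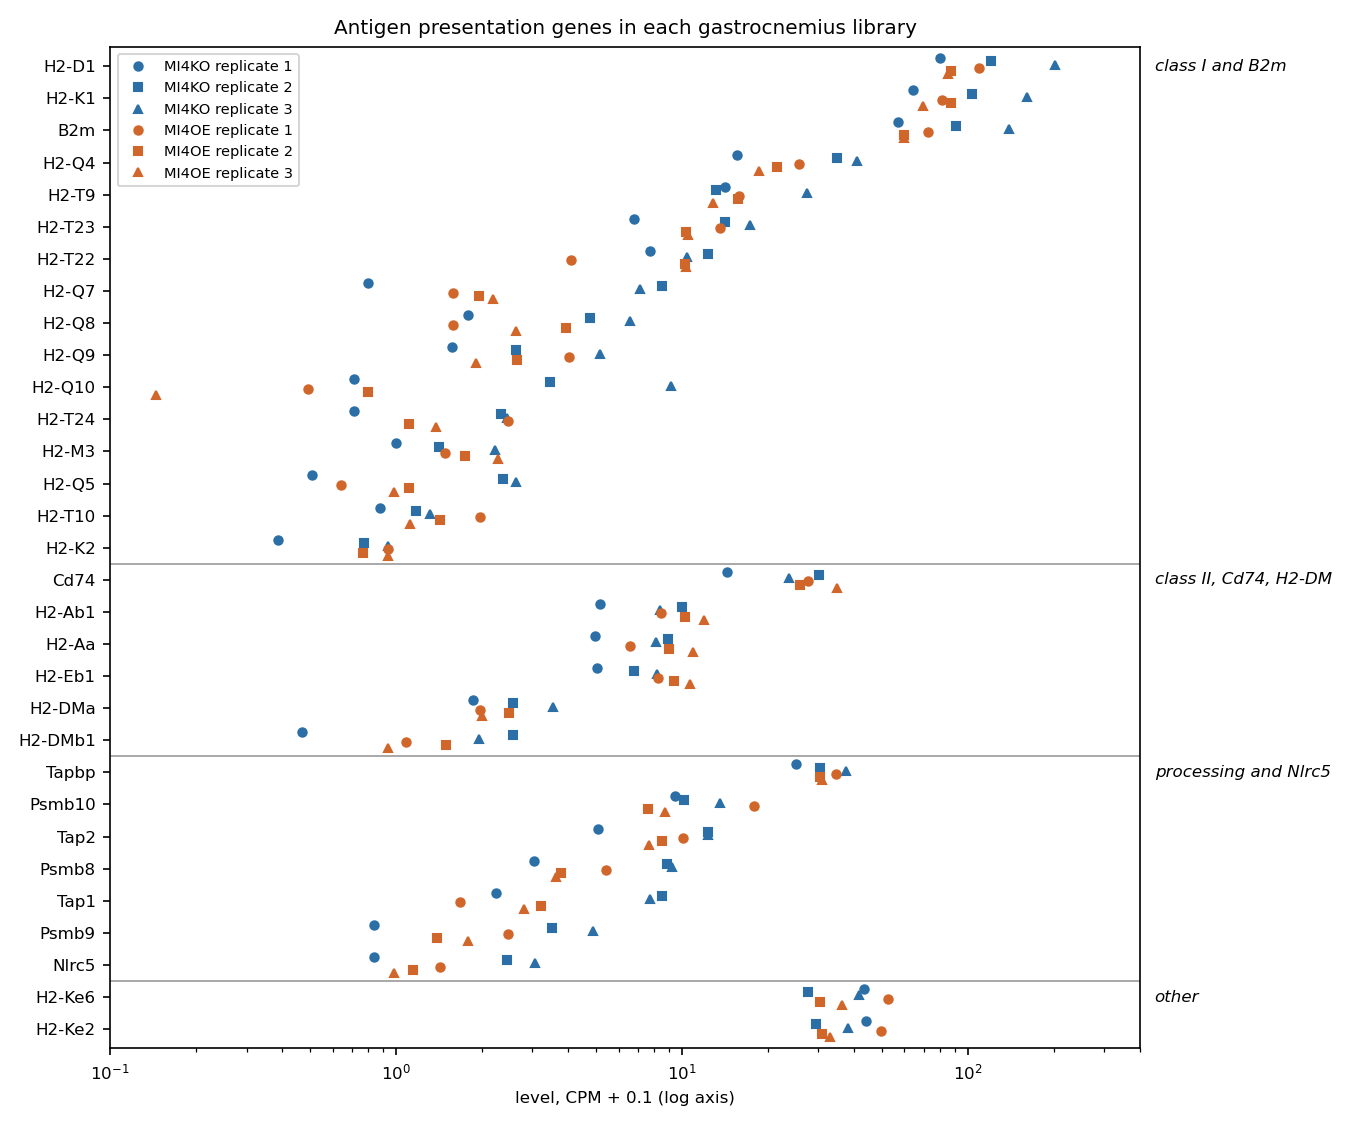
Level of each tested antigen presentation gene in each of the 6 libraries, as CPM plus 0.1 on a log axis, with blue for MI4KO, orange for MI4OE and a marker shape for each replicate. Among the 16 class I genes MI4KO replicate 1 is the lowest library for 12 and MI4KO replicate 3 the highest for 11.

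The classical class I chains were the most abundant heavy chains. H2-D1, which presents peptides to CD8 T cells, had 79.9, 121 and 201 CPM in MI4KO replicates 1, 2 and 3 and 109, 87.0 and 85.2 CPM in MI4OE replicates 1, 2 and 3. The MI4KO libraries thus lay on both sides of the MI4OE libraries, with replicate 1 below all 3 of them and replicates 2 and 3 above. The fitted log2 fold change was -0.52 ± 0.33 (SE), and the adjusted p was 0.787. H2-K1, the other classical chain of this strain, had 63.9, 103 and 161 CPM in MI4KO and 80.9, 87.0 and 69.5 CPM in MI4OE, a log2 fold change of -0.47 ± 0.32 (SE) at an adjusted p of 0.806. Its libraries had the same pattern as those of H2-D1. B2m, the light chain of every class I molecule, had 56.9, 90.9 and 139 CPM in MI4KO and 72.6, 59.8 and 59.5 CPM in MI4OE. B2m averaged 95.7 ± 41.5 CPM (SD, n = 3) over MI4KO against 63.9 ± 7.47 CPM (SD, n = 3) over MI4OE. Its log2 fold change was -0.58 with a 95% interval from -1.30 to 0.14 and an adjusted p of 0.729. For these 3 genes the spread among the MI4KO libraries exceeded the difference between the group means. Without MI4KO replicate 3 the log2 fold changes were -0.11 for H2-D1, -0.09 for H2-K1 and -0.22 for B2m, and without MI4KO replicate 1 they were -0.78, -0.74 and -0.85.

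The ratio of H2-K1 to H2-D1 was compared over libraries. On the length-adjusted TPM scale (transcript abundance relative to all transcripts), H2-K1 was 0.847, 0.904 and 0.848 of H2-D1 in MI4KO and 0.787, 1.06 and 0.863 of it in MI4OE. In MI4KO the ratio varied less than the level of H2-D1, which ran from 64.5 to 194 TPM, and in MI4OE it varied more than that level, which ran from 87.8 to 98.6 TPM. The 32 class I heavy chains summed to 164, 388 and 506 TPM in MI4KO and to 251, 278 and 239 TPM in MI4OE, and H2-D1 and H2-K1 together gave 119, 257 and 359 TPM and 176, 190 and 164 TPM of these sums. B2m had 101, 223 and 295 TPM in MI4KO and 144, 139 and 134 TPM in MI4OE, so that the light chain, like the heavy chain sum, was lowest in MI4KO replicate 1 and highest in MI4KO replicate 3.

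The sequences upstream of 4 class I genes are shown as examples. In MI4KO these genes had replicate 1 lowest and replicate 3 highest. This order does not set them apart, as most tested class I genes had it, among them B2m and H2-T23. The sequences are the 200 bases before the start in the RefSeq annotation of GRCm38.p6, written 5′ to 3′ on the strand of the gene. Capitals mark TTTCACTTC, an interferon-response type of element, GGGATTCCC, a kappa B type of element, and the Y box CTGATTGG or its reverse complement.
H2-K1, chr17:34000334-34000533, minus strand: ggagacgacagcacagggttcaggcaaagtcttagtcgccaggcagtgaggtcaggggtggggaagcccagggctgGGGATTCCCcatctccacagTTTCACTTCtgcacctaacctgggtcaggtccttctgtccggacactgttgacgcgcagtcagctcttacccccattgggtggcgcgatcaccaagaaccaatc
H2-D1, chr17:35262894-35263093, plus strand: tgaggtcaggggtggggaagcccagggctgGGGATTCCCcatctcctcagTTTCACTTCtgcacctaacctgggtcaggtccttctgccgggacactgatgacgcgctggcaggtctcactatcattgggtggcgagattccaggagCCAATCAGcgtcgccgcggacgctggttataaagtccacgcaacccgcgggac
H2-Q4, chr17:35379417-35379616, plus strand: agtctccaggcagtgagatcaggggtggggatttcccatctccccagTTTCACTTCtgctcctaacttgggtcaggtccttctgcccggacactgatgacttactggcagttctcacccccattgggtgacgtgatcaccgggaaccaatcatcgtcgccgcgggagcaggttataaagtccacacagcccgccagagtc
H2-Q10, chr17:35469889-35470088, plus strand: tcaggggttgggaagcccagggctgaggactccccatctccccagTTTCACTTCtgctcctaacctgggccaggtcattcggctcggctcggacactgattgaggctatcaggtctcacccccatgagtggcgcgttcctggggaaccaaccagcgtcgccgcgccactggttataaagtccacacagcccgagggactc

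Each motif was searched for in exact letters, on both strands, in the 250 bases before the start. TTTCACTTC was found in 7 of 23 class I genes with a sequence (H2-D1, H2-K1, H2-M3, H2-Q4, H2-Q6, H2-Q7 and H2-Q10), in 0 of 8 class II genes and in 0 of 5 processing genes. It is held by 0.402% of 32851 promoter windows of all genes. GGGATTCCC was found in H2-D1, H2-K1, H2-Q6 and H2-Q7 and in 0.301% of all windows, and nowhere overlapped TTTCACTTC in these genes. In H2-D1 the kappa B letters began 170 bases and the interferon-response letters 150 bases before the start, and in the H2-K1 sequence shown they began 124 and 104 bases before it. B2m, H2-T22 and H2-T23 held GAAANNGAAA instead, with 2.98% of all windows. The class I promoters resemble each other over much of their length, so they are not independent examples, and the matches are a description of letters only.

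The non-classical class I genes, which present restricted sets of ligands or act on natural killer and unconventional T cells, were described by cluster. H2-Q4 had 15.5, 34.7 and 40.8 CPM in MI4KO and 25.6, 21.4 and 18.5 CPM in MI4OE, a log2 fold change of -0.47 ± 0.34 (SE) at an adjusted p of 0.816. Again MI4KO replicate 1 lay below, and MI4KO replicates 2 and 3 above, all MI4OE libraries. H2-Q7, which encodes the GPI-anchored Qa-2 antigen, had 0.696, 8.40 and 7.05 CPM in MI4KO and 1.48, 1.85 and 2.08 CPM in MI4OE. Its log2 fold change was -1.58 with a 95% interval from -3.29 to 0.14 and an adjusted p of 0.688. MI4KO replicate 1 was below the MI4OE libraries and the other two were above them.

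The copies of the Qa-2 cluster are so alike that their separate values are uncertain. In annotated transcripts of GENCODE M21 linked to these genes, 87.7% of the 50-base windows of H2-Q7 and 93.9% of those of H2-Q9 occurred in another gene, and 36.8% of those of H2-Q6 did. The reads were 50 bases long, and RSEM divides a read among the transcripts that it matches. H2-Q6 had 0, 44.5 and 0 counts in MI4KO and 20.5, 0 and 0 counts in MI4OE, a pattern of all or nothing. H2-Q9 had 1.47, 2.54 and 5.07 CPM in MI4KO and 3.94, 2.55 and 1.81 CPM in MI4OE, and H2-Q8 had 1.68, 4.68 and 6.48 CPM and 1.48, 3.85 and 2.52 CPM. The sum of counts over H2-Q6 to H2-Q9, which does not depend on how reads were divided among these 4 genes, was 3.85, 17.4 and 18.6 CPM in MI4KO and 7.87, 8.25 and 6.40 CPM in MI4OE. The summed level again put MI4KO replicate 1 below, and MI4KO replicates 2 and 3 above, all MI4OE libraries. H2-Q5 had the same arrangement, with 0.409, 2.26 and 2.52 CPM in MI4KO and 0.541, 1.01 and 0.883 CPM in MI4OE, a log2 fold change of -1.08 at an adjusted p of 0.763.

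H2-Q10 was the class I gene with the largest difference. It had 0.614, 3.37 and 9.07 CPM in MI4KO and 0.394, 0.699 and 0.0442 CPM in MI4OE, a mean of 4.35 ± 4.31 CPM (SD, n = 3) against 0.379 ± 0.328 CPM (SD, n = 3). The groups overlapped, since MI4KO replicate 1 was below MI4OE replicate 2. The log2 fold change was -3.47 ± 1.04 (SE), with a 95% interval from -5.89 to -1.04. With edgeR's quasi-likelihood test the adjusted p was 0.522, with DESeq2 it was 0.0199, and over all 14 alternatives it ran from 0.0199 to 0.912. The 1.5-fold criterion was met in all 14 alternatives. H2-Q10 encodes a class I molecule that liver cells secrete into the blood. The hepatocyte marker sum was highest and lowest in the same libraries as H2-Q10, but the order of the libraries between these differed. The 7 hepatocyte markers summed to 1.92, 4.20 and 52.5 CPM in MI4KO and to 3.39, 0.315 and 0.221 CPM in MI4OE. Alb, the serum albumin of hepatocytes, had 1.06, 2.73 and 29.5 CPM in MI4KO and 2.51, 0.245 and 0 CPM in MI4OE. H2-Q10 and Alb were thus both highest in MI4KO replicate 3 and lowest in MI4OE replicate 3. The summed adipocyte markers were highest and lowest in the same libraries, at 966 and 113 CPM. The part of hepatocyte or adipocyte RNA in the H2-Q10 values was not tested. Without MI4KO replicate 3 the log2 fold change of H2-Q10 was -2.35 at an adjusted p of 0.608.

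The T and M region genes showed smaller differences. H2-T23, whose product Qa-1 presents leader peptides of other class I chains to natural killer cell receptors, had 6.71, 14.0 and 17.2 CPM in MI4KO and 13.5, 10.2 and 10.4 CPM in MI4OE, and its log2 fold change was -0.15 with an adjusted p of 0.940. H2-T22, a ligand of some gamma delta T cell receptors, had 7.61, 12.2 and 10.3 CPM in MI4KO and 3.98, 10.1 and 10.2 CPM in MI4OE. Here it was MI4OE replicate 1 that lay apart from the others. Its close relatives were H2-T9, with 14.0, 13.1 and 27.3 CPM in MI4KO and 15.7, 15.7 and 12.8 CPM in MI4OE, and H2-T10, with 0.778, 1.07 and 1.21 CPM and 1.87, 1.33 and 1.02 CPM. Of the windows of H2-T22, 40.0% occurred in another gene, not counting H2-T9, for which no transcript was linked. H2-T9, H2-T10 and H2-T22 together summed to 22.4, 26.3 and 38.9 CPM in MI4KO and 21.6, 27.1 and 24.0 CPM in MI4OE. H2-M3, which presents formylated bacterial peptides, had 0.901, 1.31 and 2.12 CPM in MI4KO and 1.38, 1.64 and 2.16 CPM in MI4OE. H2-T24 had 0.614, 2.22 and 2.35 CPM in MI4KO and 2.36, 1.01 and 1.28 CPM in MI4OE. The groups overlapped for all of these genes, with adjusted p between 0.843 and 0.967.

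Over class I as a whole, 16 of 33 genes were tested, and 13 of these 16 were below 0 with a median log2 fold change of -0.39 and a range from -3.47 to 0.45. MI4KO replicate 1 was the lowest library for 12 of the 16 and MI4KO replicate 3 the highest for 11, whereas across all tested genes these shares were 23.0% and 9.48%. The 17 genes not tested reached at most 1.78 CPM in any library, and 10 of them, among them the 6 H2-M10 genes known from vomeronasal neurons, were at 0 in every library.

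**Figure D2:**
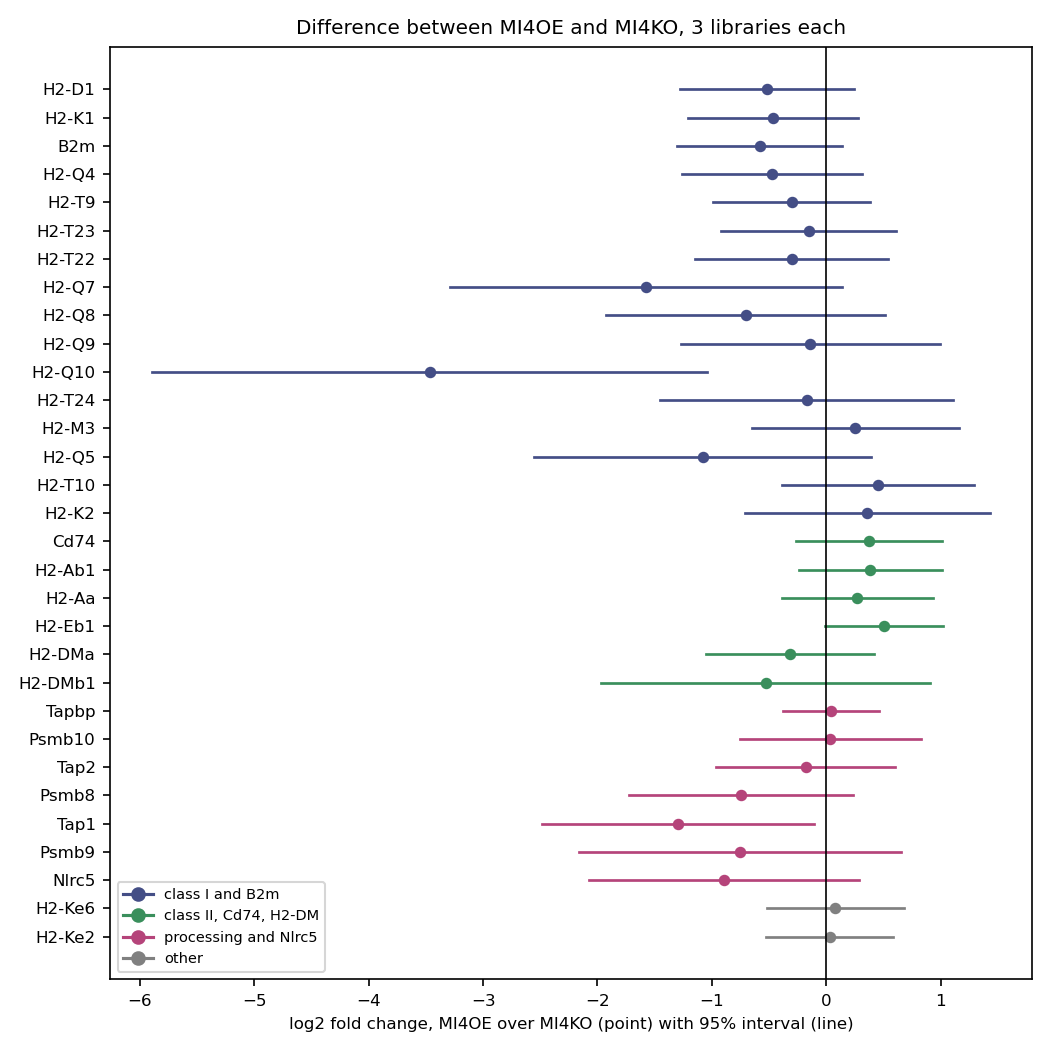
Log2 fold change of each tested gene, MI4OE over MI4KO (points), with its 95% interval (lines), coloured by class. Among the 31 genes the interval leaves out 0 only for H2-Q10 and Tap1, and the 4 class II chains lie to the right of 0.

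The 4 class II chains tested, Cd74 included, had log2 fold changes above 0, whereas 13 of 16 class I genes were below 0. No class II chain reached an unadjusted p of 0.05 with edgeR's quasi-likelihood test. The difference between the classes was not tested. Cd74, the invariant chain, had 14.3, 30.0 and 23.5 CPM in MI4KO and 27.5, 25.9 and 34.8 CPM in MI4OE, a log2 fold change of 0.38 ± 0.27 (SE) at an adjusted p of 0.819. H2-Aa, the alpha chain of the I-A molecule, had 4.87, 8.84 and 8.03 CPM in MI4KO and 6.49, 8.88 and 10.9 CPM in MI4OE, with a log2 fold change of 0.27 at an adjusted p of 0.870. H2-Ab1, its beta chain, had 5.08, 9.87 and 8.30 CPM in MI4KO and 8.36, 10.1 and 11.9 CPM in MI4OE, with a log2 fold change of 0.39 at an adjusted p of 0.812. In each of these genes MI4KO replicate 1 was the lowest and MI4OE replicate 3 the highest library. Without MI4KO replicate 1 the log2 fold changes were 0.13 for Cd74, 0.05 for H2-Aa and 0.15 for H2-Ab1.

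H2-Eb1, the beta chain of the I-E molecule, was the only one of the 31 tested genes whose groups did not overlap. It had 4.95, 6.70 and 8.09 CPM in MI4KO and 8.17, 9.30 and 10.6 CPM in MI4OE. The gap between the highest MI4KO and the lowest MI4OE library was small. H2-Eb1 averaged 6.58 ± 1.57 CPM (SD, n = 3) over MI4KO against 9.35 ± 1.22 CPM (SD, n = 3) over MI4OE. Its log2 fold change was 0.51 ± 0.22 (SE), with a 95% interval from -0.01 to 1.03 at an adjusted p of 0.672. Among all tested genes 12.9% had no overlap, 7.38% being higher and 5.48% lower in MI4OE, and of the 31 antigen presentation genes 1 was higher and 0 were lower.

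The class II sequences below are shown beside the class I ones because the X and Y boxes of these promoters are the sites through which Ciita acts. They are again the 200 bases before the start in RefSeq on GRCm38.p6, with the Y box letters CTGATTGG in capitals.
H2-Aa, chr17:34287824-34288023, minus strand: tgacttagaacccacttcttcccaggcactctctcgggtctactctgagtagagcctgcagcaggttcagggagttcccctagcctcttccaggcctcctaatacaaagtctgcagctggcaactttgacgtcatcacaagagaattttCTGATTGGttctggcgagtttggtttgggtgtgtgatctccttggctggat
H2-Eb1, chr17:34305667-34305866, plus strand: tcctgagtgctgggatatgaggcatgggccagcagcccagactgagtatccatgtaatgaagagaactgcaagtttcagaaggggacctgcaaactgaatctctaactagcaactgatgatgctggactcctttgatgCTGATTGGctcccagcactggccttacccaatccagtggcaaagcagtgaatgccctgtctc
The Y box letters lay from 51 to 44 bases before the start in H2-Aa and from 62 to 55 bases before it in H2-Eb1. They were found in 4 of 8 class II genes (H2-Aa, H2-Eb1, H2-Eb2 and H2-Oa), 12 of 23 class I genes and 2 of 5 processing genes, beside 3.83% of all promoter windows. Psmb9 and Tap1 lie head to head and were counted through the same site.

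The peptide editors of class II were measured beside the chains. H2-DMa, a subunit of the H2-DM molecule that exchanges peptides on class II, had 1.76, 2.46 and 3.43 CPM in MI4KO and 1.87, 2.38 and 1.90 CPM in MI4OE, with a log2 fold change of -0.31. H2-DMb1, the other subunit, had 0.368, 2.46 and 1.85 CPM in MI4KO and 0.984, 1.40 and 0.839 CPM in MI4OE, with a log2 fold change of -0.53. Neither passed the test, at adjusted p of 0.862 and 0.883. Without MI4KO replicate 3 the log2 fold change of H2-DMa was -0.05, and without MI4KO replicate 2 that of H2-DMb1 was -0.06. Of the windows of H2-DMb1, 27.2% occurred in another gene, mostly H2-DMb2, and the 2 genes together summed to 0.368, 2.46 and 1.85 CPM in MI4KO and 1.23, 1.40 and 0.839 CPM in MI4OE. H2-Oa and H2-Ob, which restrain H2-DM in B cells, had at most 7 counts in any library. Of the 6 class II genes tested, the 4 chains were above 0 and both editors below 0, with a median of 0.32.

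The ratio of the class I sum to the class II sum did not overlap between groups, although each sum did. No overlap was also found for 12.9% of single genes tested. The class II alpha and beta chains summed to 17.1, 41.3 and 33.4 TPM in MI4KO and to 29.1, 42.7 and 48.9 TPM in MI4OE. Summed class I heavy chains were 9.64, 9.41 and 15.2 times this sum in MI4KO and 8.60, 6.5 and 4.87 times in MI4OE, a mean of 11.4 ± 3.25 (SD, n = 3) against 6.66 ± 1.87 (SD, n = 3). The lowest MI4KO ratio lay above the highest MI4OE ratio, by less than either SD. This ratio was computed as a description, with earlier results of these data known, and was not tested.

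**Figure D3:**
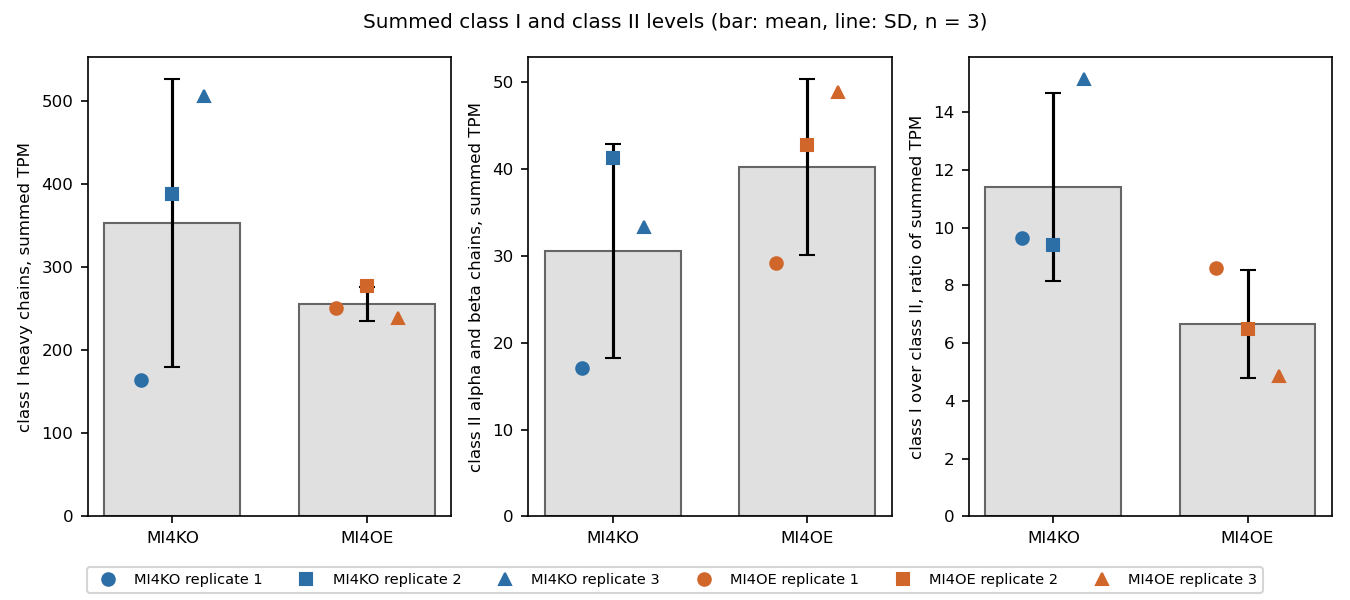
Summed TPM of the class I heavy chains (left), summed TPM of the class II alpha and beta chains (middle) and the ratio of the sums (right), with bars for the mean, lines for the SD (n = 3) and points for the libraries. The class I sums of MI4KO, from 164 to 506 TPM, surround those of MI4OE, the class II sums of the groups overlap, and the ratios run from 9.41 to 15.2 in MI4KO and from 4.87 to 8.60 in MI4OE.

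Markers of the cells that carry class II were measured beside the chains. The 12 macrophage markers summed to 59.6, 50.8 and 89.2 CPM in MI4KO and to 77.0, 36.2 and 68.8 CPM in MI4OE, and 1 of them passed an unadjusted p of 0.05 (Adgre1, the F4/80 antigen, listed under an older symbol, with a log2 fold change of -1.17 at an adjusted p of 0.626), beside 7.58% of all tested genes. The groups did not overlap for 1 of the 12, Cd163, a scavenger receptor of macrophages, with 4.01, 3.53 and 2.42 CPM in MI4KO and 4.23, 4.65 and 5.92 CPM in MI4OE and a log2 fold change of 0.57 at an adjusted p of 0.686 with edgeR. The 7 dendritic cell markers summed to 2.13, 3.29 and 3.39 CPM in MI4KO and to 4.87, 3.67 and 4.5 CPM in MI4OE. These sums do not overlap, as was the case for 12.9% of single genes tested. Zbtb46, which defines classical dendritic cells but is also made by endothelium, had 1.60, 2.58 and 1.91 CPM and 2.85, 2.80 and 2.78 CPM and made up most of this sum. Itgax was at 0.0699 to 0.221 CPM in all libraries. The 7 B cell markers summed to 0.403 to 0.436 CPM in MI4KO and 0.210 to 0.935 CPM in MI4OE, with Pax5 at 0 in every library. The 8 T cell markers summed to 0.450, 3.05 and 2.79 CPM in MI4KO and 1.82, 2.97 and 2.69 CPM in MI4OE. The macrophage sums did not follow the order of the class II chains. The dendritic cell sums, like the class II chains, were lowest in MI4KO replicate 1, but they were highest in MI4OE replicate 1. The part of each cell type in the class II levels was not tested.

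Markers of endothelium, a tissue that carries class I, and of adipocytes were also unequal between the libraries. The 10 endothelial markers summed to 130, 198 and 208 CPM in MI4KO and to 419, 231 and 257 CPM in MI4OE, and all 10 were above 0 on the log2 scale, with 5 at an unadjusted p under 0.05, beside 7.58% of all tested genes in either direction. The 7 adipocyte markers summed to 184, 346 and 966 CPM in MI4KO and to 266, 139 and 113 CPM in MI4OE, all 7 below 0 and 6 at an unadjusted p under 0.05, to be read beside the same share. In both lists no gene passed the adjusted threshold. The endothelial markers lay in the opposite direction from the class I median and the adipocyte markers in the same direction, and their part in the class I levels was not tested.

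Among the processing genes, the transporter subunit Tap1 had the largest difference. Tap1 had 2.13, 8.44 and 7.62 CPM in MI4KO and 1.57, 3.11 and 2.69 CPM in MI4OE, a mean of 6.06 ± 3.43 CPM (SD, n = 3) against 2.46 ± 0.795 CPM (SD, n = 3). Its MI4KO replicate 1 lay among the MI4OE libraries. The log2 fold change was -1.29 ± 0.51 (SE), with a 95% interval from -2.49 to -0.10 and an adjusted p of 0.626. The 1.5-fold criterion was met in 7 of 14 alternatives and in 2 of the 6 fits that left out a library. Tap2, its partner in the transporter, had 4.99, 12.2 and 12.2 CPM in MI4KO and 9.99, 8.42 and 7.55 CPM in MI4OE, with a log2 fold change of -0.18 at an adjusted p of 0.930. On the TPM scale Tap1 was 0.356, 0.577 and 0.524 of Tap2 in MI4KO and 0.133, 0.309 and 0.297 of it in MI4OE. These ratios do not overlap between groups, as was the case for 12.9% of single genes tested. They were looked at after the values of both genes had been seen and were not tested. Tapbp (tapasin), which bridges the transporter and the class I molecule, had 25.1, 30.3 and 37.5 CPM in MI4KO and 34.4, 30.4 and 30.7 CPM in MI4OE, with a log2 fold change of 0.04 and a 95% interval from -0.38 to 0.46.

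The immunoproteasome subunits Psmb8 and Psmb9 had the arrangement of libraries given above for H2-D1, H2-K1 and B2m, and Psmb10 did not. Psmb8 had 2.95, 8.80 and 9.14 CPM in MI4KO and 5.31, 3.67 and 3.53 CPM in MI4OE, a log2 fold change of -0.74 ± 0.42 (SE) at an adjusted p of 0.754. Psmb9 had 0.737, 3.41 and 4.77 CPM in MI4KO and 2.36, 1.29 and 1.68 CPM in MI4OE, a log2 fold change of -0.75 ± 0.61 (SE) at an adjusted p of 0.843. In both genes MI4KO replicate 1 was the lowest library and replicates 2 and 3 lay above all MI4OE libraries. Psmb10 had 9.33, 10.1 and 13.4 CPM in MI4KO and 17.7, 7.52 and 8.61 CPM in MI4OE, highest in MI4OE replicate 1, with a log2 fold change of 0.04 at an adjusted p of 0.992.

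The constitutive subunits exceeded the immunoproteasome subunits in every library. Psmb8 was 1.49, 6.66 and 5.11% of Psmb5 on the TPM scale in MI4KO and 2.14, 2.62 and 2.20% in MI4OE. Psmb9 was 0.611, 4.15 and 4.19% of Psmb6 in MI4KO and 1.63, 1.36 and 1.56% in MI4OE, and Psmb10 was 2.87, 4.38 and 4.81% of Psmb7 in MI4KO and 5.93, 3.0 and 3.31% in MI4OE. The mean log2 ratio was lower in MI4OE by 0.68 for Psmb8 to Psmb5 (p = 0.4, adjusted p = 0.6 over the 3 ratios, two-sided exact permutation test). The difference was -0.54 for Psmb9 to Psmb6 (p = 0.4, adjusted p = 0.6) and -0.01 for Psmb10 to Psmb7 (p = 1, adjusted p = 1) by the same exact test. With 3 libraries in each group this test cannot give a p below 0.1. Single libraries moved these differences. Without MI4KO replicate 1 the Psmb8 to Psmb5 difference was -1.34 and the Psmb9 to Psmb6 difference -1.47, both at p = 0.1 by the same exact permutation test, the smallest p that it can give there. Without MI4KO replicate 2 they were -0.26 and -0.08, and without MI4KO replicate 3 they were -0.45 and -0.08.

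**Figure D4:**
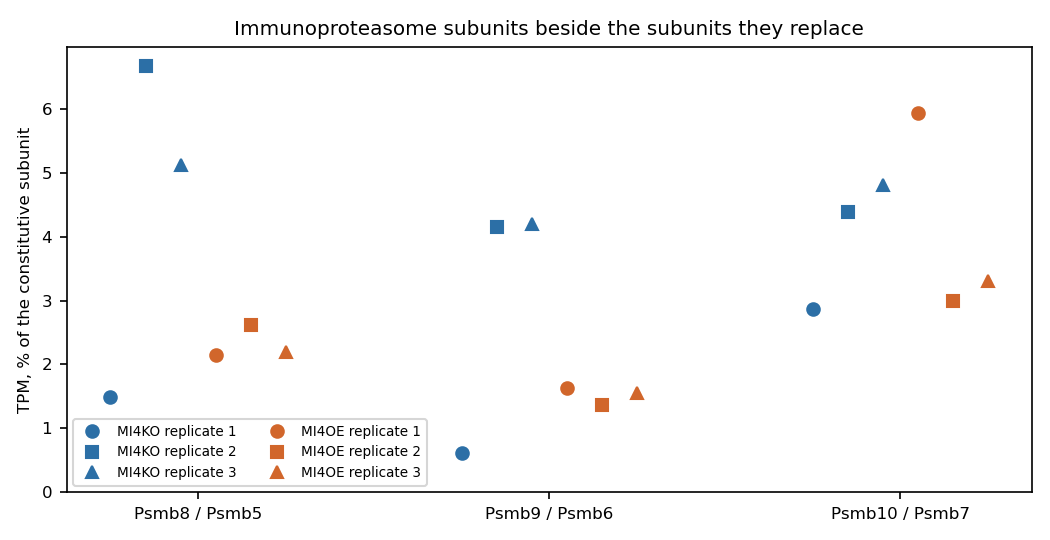
TPM of each immunoproteasome subunit as a percentage of the constitutive subunit that it replaces, in each of the 6 libraries. For Psmb8 and Psmb9 the 3 MI4OE libraries lie between MI4KO replicate 1 (1.49% and 0.611%) and the other MI4KO libraries, and for Psmb10 the groups are mixed.

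The coactivators were low. Nlrc5 had 0.737, 2.34 and 2.96 CPM in MI4KO and 1.33, 1.05 and 0.883 CPM in MI4OE, with a log2 fold change of -0.89, a 95% interval from -2.08 to 0.29 and an adjusted p of 0.754. It too had MI4KO replicate 1 below, and MI4KO replicates 2 and 3 above, the MI4OE libraries. Ciita had 4, 13 and 6.95 counts in MI4KO and 4, 8 and 6 counts in MI4OE and was not tested. All of its reads were assigned to 1 of its 3 annotated transcripts. Of the 7 processing genes tested, 5 were below 0, with a median log2 fold change of -0.74 and a range from -1.29 to 0.04.

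H2-Ke2, a prefoldin subunit, and H2-Ke6, a steroid dehydrogenase of mitochondria, served as neighbours of the region with no role in presentation. H2-Ke2 had 43.8, 29.2 and 38.0 CPM in MI4KO and 49.7, 30.7 and 32.9 CPM in MI4OE. H2-Ke6 had 43.1, 27.6 and 41.6 CPM in MI4KO and 52.3, 30.2 and 36.3 CPM in MI4OE. Both were lowest in MI4KO replicate 2 and highest in MI4OE replicate 1, an order not seen in the class I genes, with log2 fold changes of 0.03 and 0.08.

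Much of the class I difference depended on 2 MI4KO libraries that lay at opposite ends. MI4KO replicate 1 was lowest for 23 of the 31 tested genes, and MI4KO replicate 3 was highest for 16. Without MI4KO replicate 1, the median log2 fold change was -0.74 for class I, 0.09 for class II and -1.11 for processing genes. The 1.5-fold criterion was then met by 13 of 32 tested antigen presentation genes, all lower in MI4OE. Of the 12875 genes tested in that fit 4.88% met it, 2.56% in the lower direction. They were B2m, H2-D1, H2-K1, H2-Q4, H2-Q5, H2-Q7, H2-Q8, H2-Q10, H2-DMb1, Nlrc5, Psmb8, Psmb9 and Tap1. The groups did not overlap in the lower direction for 17 of the 32 genes and in the higher direction for 1, beside 9.41% and 10.1% of all genes in that fit. With all 6 libraries, MI4KO replicate 1 was lowest for 23.0% of all tested genes, a smaller share than among the antigen presentation genes. Leaving it out thus favoured lower values in MI4OE among the latter, and the counts from that fit are a description only. The adjusted p still stayed above 0.05 for all 32 genes, with a lowest value of 0.207 for H2-Q7. Without MI4KO replicate 3, by contrast, the class I median was -0.11 and the processing median -0.24, and the criterion was met by H2-Q10 and by H2-Eb1, the latter higher in MI4OE with a log2 fold change of 0.67. These were 2 genes beside 7.56% of the 12761 genes tested in that fit. H2-Eb1 also met the criterion without MI4OE replicate 1, at a log2 fold change of 0.59, beside 4.56% of 12930 genes. It did not meet it when any of the other 4 libraries was left out, with log2 fold changes of 0.33 and 0.51 on leaving out MI4KO replicates 1 and 2, and of 0.51 and 0.40 on leaving out MI4OE replicates 2 and 3.

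**Figure D5:**
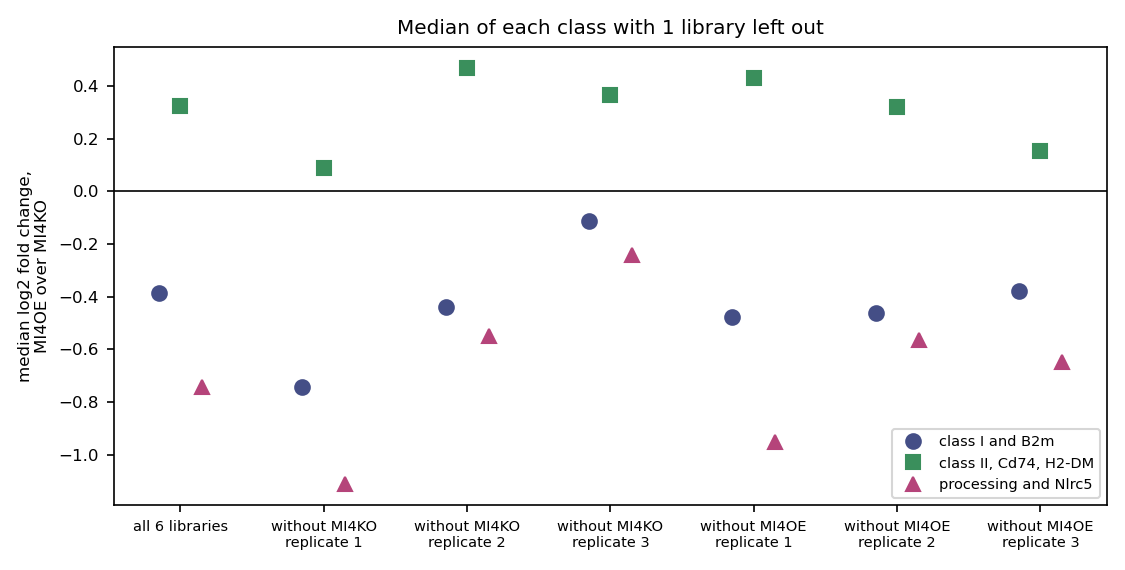
Median log2 fold change (MI4OE over MI4KO) of class I, class II and processing genes with all 6 libraries and with each library left out in turn. The class I and processing medians stay below 0 and the class II median above 0 throughout, while the class I median runs from -0.74 without MI4KO replicate 1 to -0.11 without MI4KO replicate 3.

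Genes of the same pathway outside the MHC did not lean in one direction. Of 38 genes in the lists of other antigen processing, other class I-like molecules and promoter-bound factors, 35 were tested, 15 were below 0 and 20 above 0, with a median of 0.01. At an unadjusted p under 0.05 there was 1 gene, beside 7.58% of all tested genes. It was Cd1d1, which presents lipids to natural killer T cells, with 0.983, 2.42 and 5.81 CPM in MI4KO and 0.787, 0.315 and 0.397 CPM in MI4OE. Its groups did not overlap, as for 5 of the 35 tested genes of these lists (3 lower and 2 higher in MI4OE) and 12.9% of all tested genes. The log2 fold change was -2.64 ± 0.70 (SE). With edgeR's quasi-likelihood test the adjusted p of Cd1d1 was 0.496. DESeq2 gave 0.0182 and the exact test of edgeR gave 0.0442. Like H2-Q10 and the adipocyte markers, Cd1d1 was highest in MI4KO replicate 3. Among the promoter-bound factors, 13 were tested and 0 reached an unadjusted p of 0.05, with log2 fold changes between -0.45 and 0.51.

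At the level of transcripts, Cd74 has a short and a long form, and the long form, NM_001042605, took 4.64, 24.1 and 13.1% of the Cd74 TPM in MI4KO and 15.3, 19.1 and 33.1% in MI4OE. The groups overlapped, and MI4KO replicate 1 was again the lowest. Tapbp was divided between forms of nearly the same length, of which NM_001025313 took from 29.9 to 73.5% with no order by group. All Tap1 counts were assigned to 1 of its 2 transcripts.

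Strain haplotype can shift how reads of H2 genes map, because the chains are among the most variable genes between strains. Genes that the C57BL/6 haplotype is known not to express are given as a description. They cannot show which haplotype a library carried, since another haplotype may lack them too. H2-Ea-ps, the inactive I-E alpha chain of this haplotype, was at 0 in every library, so H2-Eb1 transcripts were present without a partner. H2-L, a classical chain of other haplotypes, had 0, 0 and 8.98 counts in MI4KO and 0, 13.1 and 0 counts in MI4OE, in 1 library of each group. B2m, Cd74, H2-Aa, H2-Ab1, H2-Eb1, Nlrc5, Psmb8, Psmb9 and Psmb10 had 0% of their windows in another gene, against 14.1% for H2-D1, 8.79% for H2-K1 and 0.847% for Tap1. The alleles carried by the libraries were not analysed here, so differences of haplotype between the lines and differences of expression cannot be told apart for H2 genes.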

How the data were processed

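According to the labels and methods, the authors made stranded mRNA libraries (Kapa), sequenced 50-base single reads on a HiSeq3000 and processed them with bcl2fastq 2.17, Bowtie2 2.1.0 and RSEM 1.2.15 against a UCSC transcript set whose build is not given in the sources used here. The authors deposited expected counts, which RSEM estimated for each gene and transcript and which are not normalized. The deposited TPM values are RSEM's abundances adjusted for transcript length. The authors' tables of fold changes, p-values and false discovery rates, and 12 library columns in them, were not used.

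Counts rounded to the nearest whole number were fitted in R 4.3.3 with edgeR 4.0.16 (filterByExpr, minimum count 10 and minimum total 15, TMM factors, quasi-likelihood test, Benjamini-Hochberg over 12660 genes). CPM used TMM-scaled library sizes. Groups came from the genotype label. The fit was tested on simulated counts. Alternatives were DESeq2 1.42.0, edgeR's exact test, RLE factors, total counts, a mean CPM of at least 1, no filter on low counts, limma 3.58.1 on log2(TPM + 0.1) and log2(TPM + 1), and leaving out each library. Floors cover counting error only. Windows shared between genes were counted in GENCODE M21 transcripts for 50 of the 54 genes, and promoters came from RefSeq for 37 of them. H2-Ea-ps, H2-L, H2-Q8 and H2-T9 had no linked transcript. Sharing with these genes was not counted, so the shares of windows given for their relatives can be too low. Named were genes with a mean CPM of at least 1, others by count or as checks, and pathway and marker genes with an unadjusted p under 0.05 or that define a cell type. The members, lists, motifs and tests were chosen with earlier results of these data known.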

Additional observations from a re-analysis of the deposited data

How the results depend on the processing

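Depth limits the low genes: 3 counts are 0.101 to 0.148 CPM, and 23 of 54 genes were too low to test. No paired analysis was possible because the labels give no pairing, and the replicate numbers used here only follow deposition. Over 14 alternatives, 411 of 434 values of the 31 named genes (30 members and Cd1d1) kept their direction and their side of the threshold, 3 passed it and 20 changed sign. The cause of these changes was not tested. The medians of class I, class II and processing genes kept their signs in all 14.

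Genes with an adjusted p under 0.05 numbered 3, then 111 with DESeq2 and 112 with the exact test, and ranged from 1 to 4 with a library left out. Genes at the 1.5-fold criterion numbered 841, 468 with limma on log2(TPM + 1), and 590 to 1314 with a library left out. Antigen presentation genes at this criterion numbered 2, then 3 with DESeq2, with the exact test and with no filter (H2-Q7 added in each), 1 with limma at both offsets and with total counts, and 1 to 13 with a library left out. The log2 fold change of Irf4 ranged from 10.69 to 12.61 with a library left out, and was 12.61 at an adjusted p of 0.0587 without MI4KO replicate 1. With limma, H2-Q9 changed sign to 0.042 (offset 0.1) and 0.00050 (offset 1) and H2-T23 to 0.0050 (offset 0.1). With a library left out, the log2 fold change changed sign for H2-Ke2 (-0.22 to 0.16), H2-Ke6 (-0.17 to 0.24), H2-Q9 (-0.47 to 0.44), H2-T22 (-0.51 to 0.018), H2-T23 (-0.46 to 0.12), H2-T24 (-0.60 to 0.10), H2-T9 (-0.50 to 0.10), Psmb10 (-0.45 to 0.26), Tapbp (-0.10 to 0.19) and the Psmb10 to Psmb7 ratio (-0.32 to 0.18).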
